A study of Mus musculus with 16 samples.

Results

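Regulatory T cells (Tregs) from injured skeletal muscle were compared with Tregs from the spleen of injured mice of the same transgenic line, using 4 of the 16 RNA libraries in the series. Both groups came from mTreg24 TCR-tg+ Foxp3 GFP+ (B6) mice aged 6 to 8 weeks. These mice carry the transgenic T cell receptor (TCR) named in the labels, from a muscle Treg, and a green fluorescent reporter of Foxp3. Vβ8+ Tregs, Vβ8 being the transgenic β chain family, were sorted from both tissues 3 days after injection of cardiotoxin (Ctx), a venom toxin that kills muscle fibres. Each group has 2 libraries, and the comparison covers all 52997 gene symbols of the count table, of which 13188 had enough counts to be tested. The sources do not say which promoter drives the transgene, how many animals made up a library, or whether muscle and spleen came from the same animals. Some other Treg libraries entered the fit for the estimate of spread or are quoted for comparison: uninjured Tg spleen, sorted as Vβ8+, and injured WT muscle and WT spleen, sorted as total Tregs of mTreg24 TCR-tg- Foxp3 GFP+ (B6) mice.

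Tregs are CD4 T cells that depend on the transcription factor Foxp3 and restrain other immune cells. In lymphoid organs most of them recirculate, held in that state by factors such as Tcf7, Lef1 and Klf2 and by homing receptors such as Ccr7. Tregs that settle in injured tissue are known to carry receptors for alarm signals, to be restimulated through their TCR, and to secrete repair factors, of which amphiregulin is the best known in muscle. Both groups here were gated on the transgenic Vβ8 chain, so the comparison is between tissues in Tregs of the same TCR transgene.

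The libraries held between 2899946 and 4438454 counts and between 19072 and 20537 genes with a count. Levels are TMM-scaled CPM, which are read counts relative to the size of the library, given as the 2 libraries of muscle followed by the 2 of spleen, and differences are log2 fold changes, muscle minus spleen, ± SE. A count of 0 allows up to 3 counts, which is between 0.673 and 1.12 CPM in these libraries. A gene is called higher or lower where the adjusted p of edgeR's quasi-likelihood test is under 0.05, with no minimum fold. Nothing in the labels says that the libraries of a group came from separate animals, so the p-values measure only the spread between these samples.

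The sorted cells carried the defining transcripts of Tregs in both tissues. Foxp3 (chromosome X, 7573644 to 7595245) was at 2153 and 2314 CPM in muscle and 1229 and 1166 in spleen. Cd3e, a chain of the TCR complex, was at 783 and 786 against 909 and 842, and Ikzf2, the factor Helios, at 652 and 605 against 794 and 666; neither passed the test (adjusted p = 0.522 and 0.514). Foxp3 levels did not overlap between the tissues, as for 53.3% of all genes tested. Foxp3 was called higher in muscle (0.90 ± 0.13, adjusted p = 0.00046).

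Transcripts of the transgenic TCR were abundant in both tissues. Trbv13-2, the Vβ8 segment of the gate (chromosome 6, 41121396 to 41121832), was at 4704 and 5039.5 CPM in muscle and 3581 and 3741 in spleen, a log2 difference of 0.41 ± 0.18 (adjusted p = 0.203). Trav9-4, the leading α segment of Tg Tregs (chromosome 14, 53676141 to 53676630), was at 1209 and 1501 CPM in muscle and 368 and 397 in spleen, and rose by 1.83 ± 0.14 (adjusted p = 1.32e-06). The β segment, on which cells were sorted, did not pass the test, while each muscle library had more than 3 times the α segment of either spleen library. Related V segments can share reads, and Trav9-4 was picked for its level in Tg Tregs.

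Among the markers of other cell types, those of macrophages differed most between the tissues, while the sums of several other lists overlapped. The 17 macrophage and monocyte markers summed to 45.6 and 38.3 CPM in muscle and to 198 and 233 CPM in spleen. Of the 14 that were tested, 6 were lower in muscle and 0 higher, and 0 to 2 were lower with any 1 library left out. C1qa, C1qc and Marco had no count in either muscle library, and every one of the 17 had a count in at least 1 spleen library. The 12 B cell markers summed to 1239 and 1349 CPM in muscle and to 1757 and 1639 CPM in spleen. Most of that sum was Ighm, at 1158 and 1248 against 1634 and 1443 CPM. Of the 10 B cell markers tested, 2 were lower, Cd79b (-1.01) and Ighd (-1.85), and 0 higher (median -2.05), with 0 to 1 lower when any 1 library was left out. Myogenic markers summed to at most 2.04 CPM in any library, with Pax7, Myod1 and Myog at 0 in both muscle libraries. Muscle fibre markers summed to 644 and 599 CPM in muscle and 456 and 356 in spleen, nearly all of it Ttn and Neb. Neb, for nebulin, was the 1 of 7 tested fibre markers that rose, from 193 and 135 to 449.5 and 441 CPM (1.44 ± 0.17, adjusted p = 5.58e-05), Ttn, for titin, was at 164 and 125 against 232 and 188 (adjusted p = 0.106), and Myh1, Myh2, Myh4 and Mb had no count in muscle. Neutrophil markers summed to at most 2.24 CPM, and erythroid markers to 6.62 to 8.23 in muscle and 6.8 to 9.64 in spleen. Dendritic cell markers summed to 224 and 252 CPM against 296 and 229, and CD8 and NK markers to 105 and 92.5 against 104 and 73.6, with Cd8a and Ncr1 at 0 in muscle. Fibroblast markers were at 92.0 and 90.02 against 75.5 and 67.5 CPM, with Pdgfra and Col1a2 at 0 in muscle, and endothelial markers at 166 and 193 against 170.4 and 231, with Cdh5 at 0 in muscle. The part of these transcripts in the gene differences given here was not tested. In such sorted bulk samples fewer cells of a kind and less RNA per cell cannot be told apart.

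**Figure D1:**
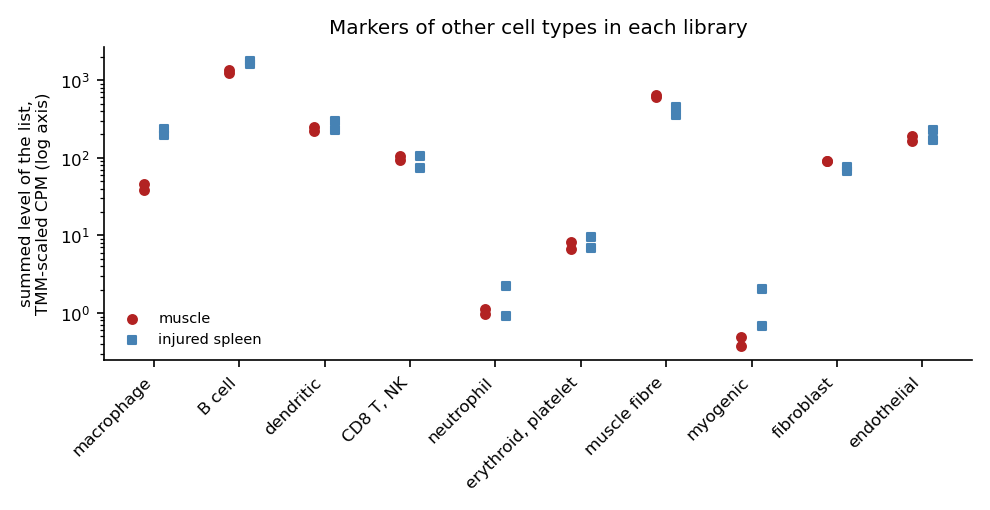
Summed TMM-scaled CPM of 10 marker lists of other cell types (log vertical axis), with 1 point per library for muscle (circles) and injured spleen (squares). The macrophage list separates the tissues most, at 38.3 to 45.6 CPM in muscle and 198 to 233 CPM in spleen; the myogenic and neutrophil lists stay at or under 2.24 CPM in every library.

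Between the muscle and spleen groups 973 of the 13188 genes tested differed, which is 7.38% of them: 637 were higher in muscle (4.83%) and 336 lower (2.55%). The counts of called genes given for each gene or marker list are to be read against these 2 shares of all genes. The median log2 fold change over all genes tested was -0.04. With only 2 libraries a side, 25.4% of all genes had both muscle libraries above both spleen libraries and 27.8% had both below, 53.3% together, and 20.5% had an unadjusted p under 0.05. By their fitted fold change, 406 of the higher genes changed at least 2-fold, 170 at least 4-fold and 87 at least 8-fold. Of the lower genes 245, 129 and 72 did so. Of the 336 lower genes 24 had no count in either muscle library, and of the 637 higher genes 4 had no count in either spleen library. Leaving out any 1 of the 4 libraries gave between 452 and 640 called genes, of which 437 to 552 were among the 973. The lone library of a group is then assumed to vary like the other groups.

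**Figure D2:**
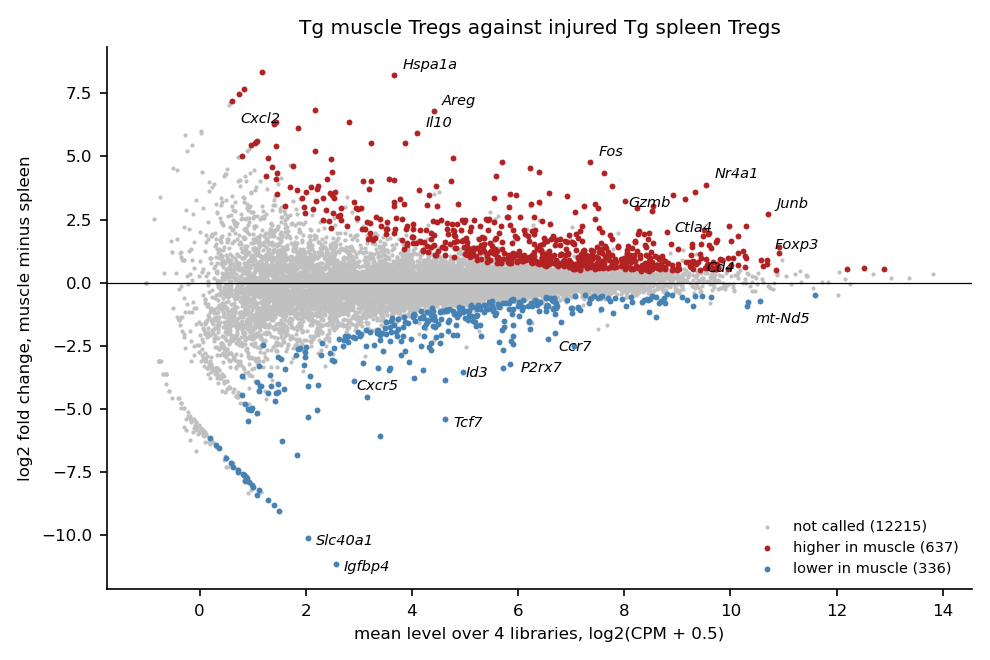
Log2 fold change, muscle minus injured spleen, against the mean level over the 4 libraries, log2(CPM + 0.5), for the 13188 genes tested; red marks the 637 genes called higher, blue the 336 called lower, grey the rest. Abundant genes such as Junb and Nr4a1 lie far above 0, and the diagonal edge at the lower left holds genes with no count in muscle, such as Igfbp4 and Slc40a1.

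Early response and costimulatory genes stood among those that gained most of the muscle RNA. Leaving out TCR genes, the 15 called genes with the largest rise in mean CPM were the MHC class I genes H2-K1, H2-D1 and B2m, the filament gene Vim, the receptors Tnfrsf4, Tnfrsf9, Icos, Ctla4 and Itgae, the regulators Nfkbia, Tnfaip3, Junb, Dusp1 and Nr4a1, and Gzmb. Nr4a1, an orphan nuclear receptor induced by TCR signals (chromosome 15, 101254269 to 101274795), was at 3160.0 and 2575 CPM in muscle and 174 and 214 in spleen (adjusted p = 1.62e-06). Junb, a subunit of AP-1, was at 4443 and 4097 against 777 and 534 CPM (2.70 ± 0.18, adjusted p = 6.77e-07). The largest falls in mean CPM included 3 genes of the mitochondrial genome, mt-Nd5, mt-Cytb and mt-Nd1, along with Itga4, Ripor2, Cd27 and Gimap3. The 50 most abundant genes held between 15.2% and 17.1% of the counts in each of the 4 libraries. AP-1, ATF and CREB factors alone made up 0.683% and 0.623% of counts in muscle and 0.161% and 0.126% in spleen.

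**Figure D3:**
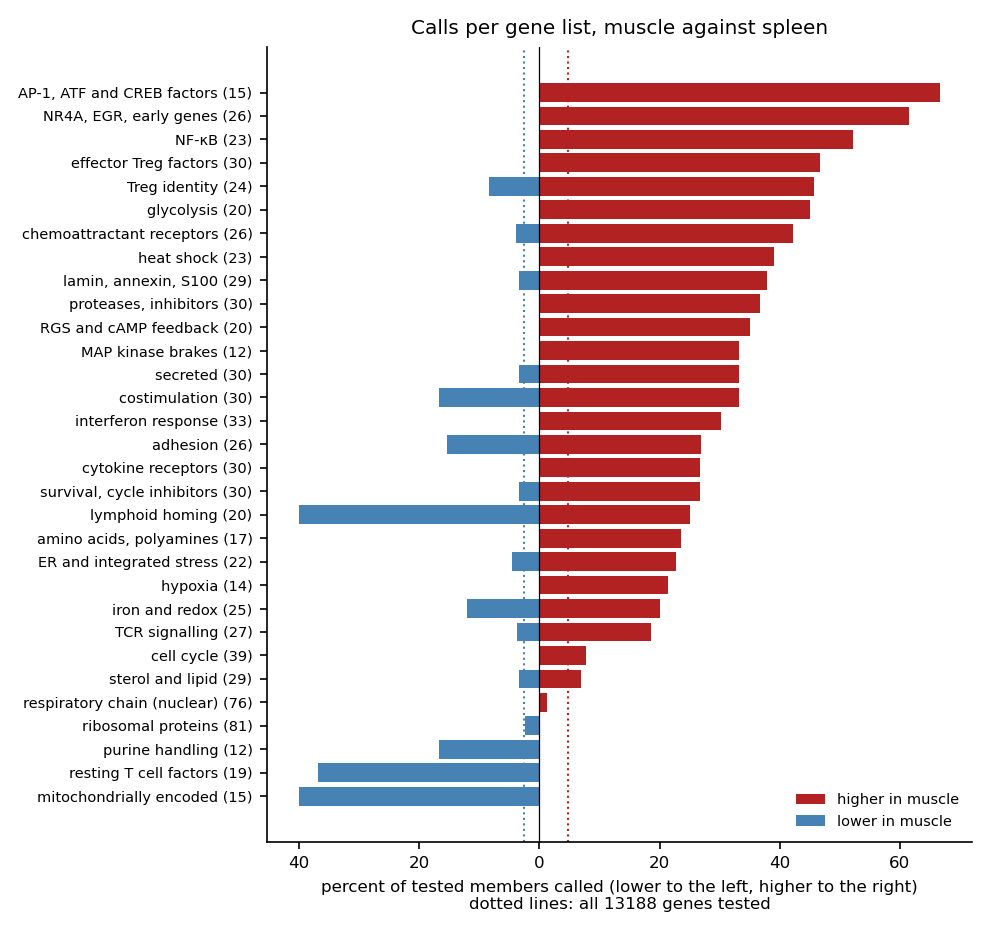
Percent of the tested members of the gene lists on T cell functions and general processes that were called higher (red, to the right) or lower (blue, to the left) in muscle, with the number tested in brackets and dotted lines at the 4.83% and 2.55% of all genes. Among these lists, which leave out the cell type markers and the dissociation genes, AP-1, ATF and CREB factors lead on the right with 66.7%. Of the dissociation genes, which share members with these lists, 76% were called higher. Resting T cell factors, lymphoid homing and mitochondrially encoded genes reach furthest to the left with 36.8%, 40% and 40%.

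A few secreted proteins were far higher in muscle, led by amphiregulin and interleukin 10. Of 50 listed genes 30 were tested; 10 were higher in muscle, 1 was lower, and the median was 1.13 log2 units against -0.04 for all genes. Areg, encoding amphiregulin (chromosome 5, 91139599 to 91148432), was at 247 and 211 CPM in muscle and 3.63 and 0.449 in spleen (6.79 ± 0.60, adjusted p = 0.000193). Il10, an anti-inflammatory cytokine (chromosome 1, 131019845 to 131024974), was at 125 and 125 against 2.95 and 1.12 CPM (5.92 ± 0.43, adjusted p = 3.51e-06). Both values moved with the spleen library left out: Areg was at 8.9 log2 units without spleen replicate 1 and 5.97 without spleen replicate 2, and Il10 at 6.76 without spleen replicate 1. Both genes were more than 30 times higher in each muscle library than in either spleen library. Cxcl2, a chemokine for neutrophils, was at 22.1 and 14.2 CPM against 0.227 and 0.224, which is 1 count in each spleen library (adjusted p = 0.000408). Metrnl, a secreted meteorin-like factor, was at 17.2 and 18.6 against 1.13 and 0.897 CPM (4.10 ± 0.65). Fgl2, a secreted suppressive protein, rose by 2.16 ± 0.40 and Tnf by 1.10 ± 0.25. The single gene that fell was Tnfsf8, the ligand of CD30, by 2.87 ± 0.40. Its receptor gene Tnfrsf8 moved the other way, from 26.5 and 20 CPM in spleen to 98.4 and 123 in muscle (2.25 ± 0.33). Penk, the enkephalin precursor, was high in both tissues at 286 and 247 against 255 and 154 CPM and did not pass the test (adjusted p = 0.76). With any 1 library left out 4 to 6 of the list were called higher. Tnf lost its call in each of these fits and Fgl2 without either spleen library, and Tnfsf8 was at -3.5 without muscle replicate 1. Il5, Il13, Il4, Il17a and Il2 did not reach the level needed for a test.

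Proteases and their inhibitors rose in 11 of 30 tested cases and fell in 0 (median 0.97), with 7 to 10 higher when any 1 library was left out. Gzmb, a granzyme that triggers death of target cells (chromosome 14, 56258838 to 56262260), was at 1467 and 2136 CPM against 163 and 199 (3.31 ± 0.30, adjusted p = 0.000176). Ctla2a, a relative of cathepsin propeptides that inhibits cathepsin L, was at 383 and 385 against 20.6 and 15.9 CPM (4.39 ± 0.23). Reads of Ctla2a can be shared with its close copy Ctla2b, which was also called. Furin, which cuts proproteins, rose by 2.58 ± 0.32, the membrane-bound matrix protease Mmp25 by 2.14 ± 0.36, the sheddase Adam8 by 1.61 ± 0.19 and the lysosomal protease Ctsz by 0.95 ± 0.16. The abundant lysosomal genes did not follow: Ctsb was at 601 and 581 against 604 and 534 CPM (adjusted p = 0.897), Ctsd at 297 and 272 against 283 and 258 (adjusted p = 0.83) and Ctss at 408 and 392 against 322 and 258 (adjusted p = 0.256).

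**Figure D4:**
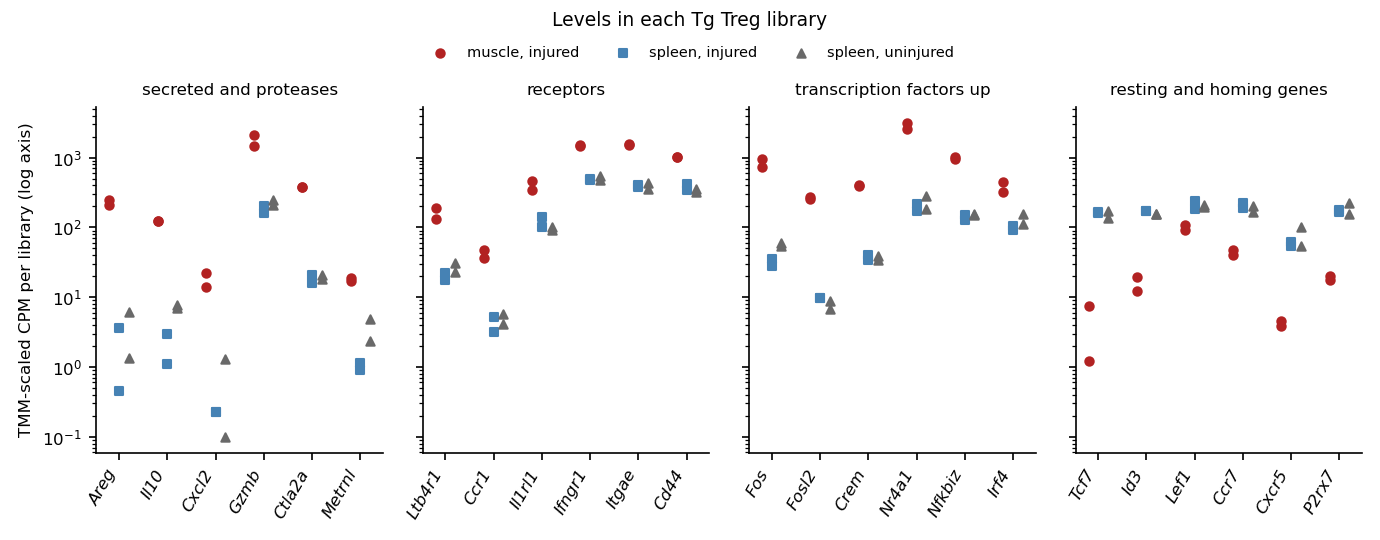
TMM-scaled CPM (log vertical axis) of 24 genes in each library of Tg muscle Tregs (circles), injured Tg spleen Tregs (squares) and uninjured Tg spleen Tregs (triangles); a library with no count is drawn at 0.1. In the first 3 panels both muscle points lie above every spleen point and in the last panel both lie below.

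Receptors for tissue signals were higher in muscle for several families. Of 30 tested cytokine receptor genes 8 rose and 0 fell (median 0.25), and 4 to 6 were called higher with any 1 library left out. Il1rl1, the receptor of the alarm cytokine IL-33, was at 348 and 458 CPM against 101 and 141 (1.74 ± 0.25, adjusted p = 0.000725). Ifngr1, a chain of the interferon-γ receptor, was at 1501 and 1443 against 500.1 and 475 CPM (1.59 ± 0.14). Il12rb1 rose by 1.55 ± 0.21, Il10ra by 0.97 ± 0.17 and Crlf2, a chain of the TSLP receptor, by 0.97 ± 0.24. Il1r1, the signalling receptor of IL-1, had no count in spleen and was at 4.11 and 6.38 CPM in muscle. It was at least 7.76-fold higher against the floor of 3 counts per library; it was singled out after its values were seen. The shared γ chain Il2rg, at 1374 and 1251 against 945 and 1024 CPM, and Ifnar1, at 500.0 and 456 against 417 and 458, did not pass (adjusted p = 0.124 and 0.629).

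Chemoattractant receptors (median 1.28) rose in 11 of 26 tested cases (42.3%) and fell in 1 (3.85%), against 4.83% and 2.55% of all genes. Ltb4r1, the high-affinity receptor of leukotriene B4, was at 133 and 188 CPM against 17.9 and 22.2 (3.00 ± 0.25), and Ccr1, an inflammatory chemokine receptor, at 46.7 and 36.3 against 5.21 and 3.14 (3.30 ± 0.52). The proton-sensing receptor Gpr65 rose by 1.29 ± 0.22, Gpr132 by 1.28 ± 0.18, P2ry10 by 0.99 ± 0.17 and Ccr4 by 1.05 ± 0.16. Gpr34, a receptor for lysophosphatidylserine, was the 1 gene that fell (-2.11 ± 0.41). Like 25.4% of all genes tested, Ccr8 and Ccr3 were higher in both muscle libraries than in both spleen libraries. Ccr8 was at 336 and 267 against 102 and 29.4 CPM and Ccr3 at 442 and 505 against 96.5 and 143 CPM. Neither passed the test (adjusted p = 0.0634 and 0.0941), whose spread is estimated over all 10 Treg libraries. Both passed under DESeq2 and with both Tg spleen groups as the reference. In a fit of the compared groups only, Ccr3 passed and Ccr8 did not.

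Adhesion genes moved in both directions (median 0.19), with 7 of 26 tested genes higher (26.9%) and 4 lower (15.4%), against 4.83% and 2.55% of all genes. When any 1 library was left out 4 to 6 were higher and 2 to 3 lower. Itgae, the αE integrin chain that binds E-cadherin, was at 1501 and 1579 CPM against 381 and 406 (1.97 ± 0.24). Cd44, a receptor of hyaluronan, was at 1027 and 1019 against 342 and 418 (1.43 ± 0.15), and Icam1 at 632 and 485 against 213 and 189 (1.48 ± 0.25). Itgav rose by 1.65 ± 0.25. The tetraspanin Cd9 fell from 49.2 and 50.5 to 8.23 and 7.36 CPM (-2.68 ± 0.33), with Cd96 at -1.55, Itga7 at -1.38 and Icam2 at -1.04. Itgal, the αL integrin chain, was at 648 and 695 against 784 and 706 CPM (adjusted p = 0.547). Its partner, the β2 chain gene Itgb2, was at 1110.3 and 1098 against 861 and 822 and did not pass here (adjusted p = 0.083), though it passed in a fit of the compared groups only and with both Tg spleen groups as the reference.

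Costimulatory and inhibitory receptor genes moved in both directions (median 0.53). Of 30 tested genes 10 were higher (33.3%) and 5 lower (16.7%), against 4.83% and 2.55% of all genes. Without any 1 of the libraries 8 to 10 were higher and 0 to 2 lower. Icos was at 2034 and 2289.6 CPM against 619.6 and 582 (1.85 ± 0.17), Havcr2, the receptor TIM-3, at 142 and 137 against 30.4 and 16.1 (2.59 ± 0.29), and Tnfrsf10b, the mouse TRAIL receptor, at 49 and 64.8 against 9.06 and 12.8 (2.38 ± 0.34). Cd274, encoding PD-L1, rose by 1.24 ± 0.17 and Slamf1 by 0.99 ± 0.15. The genes that fell included Btla (-1.03), Cd200 (-1.04) and Slamf7 (-2.86). Cd160 also fell, from 8.61 and 9.42 CPM to 0.748 and 0.245, the last being 2 counts and 1 count. Klrg1, at 930.4 and 997 against 429 and 445 CPM, did not pass (adjusted p = 0.136). Of 24 tested Treg identity genes 11 rose and 2 fell (median 0.66): Ctla4 (2.25 ± 0.14), Tnfrsf18 (1.37 ± 0.18) and Capg (1.16 ± 0.14) rose, while Izumo1r, the folate receptor 4 of Tregs, fell by 0.69 ± 0.12 and Gpr83 by 3.85 ± 0.36.

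Of 27 tested genes of proximal TCR signalling 5 rose and 1 fell (median 0.07), or 18.5% and 3.7% against 4.83% and 2.55% of all genes, and the largest rise was Sh2d2a, an adaptor of T cells, at 1.08 ± 0.14. With any 1 library left out 2 to 3 were higher. Lck was at 1684 and 1524 against 1485 and 1464 CPM (adjusted p = 0.637) and Ptprc at 2324 and 2862 against 2372 and 2799 (adjusted p = 0.992). The kinase gene Prkcq was the one that fell, by 0.70 ± 0.16.

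Transcription factors known to respond to stimulation showed many increases, and several of them also respond to tissue preparation, as described below. Of 15 tested AP-1, ATF and CREB family genes 10 rose and 0 fell (median 1.98), or 66.7% against 4.83% of all genes. Fos (chromosome 12, 85473890 to 85477273) was at 966 and 742 CPM in muscle and 34.7 and 28.3 in spleen (4.76 ± 0.18, adjusted p = 1.23e-09). Fosl2 was at 257 and 276 against 9.74 and 9.64 CPM (4.78 ± 0.21, adjusted p = 5.99e-09). Crem, which encodes activators and the inducible repressor of cAMP-responsive genes, was at 388 and 409 against 33.8 and 39.7 CPM (3.44 ± 0.20). Muscle and spleen libraries did not overlap for any of these 3 genes, as for 53.3% of all genes tested. Jun rose by 3.48 ± 0.27 and Fosb by 4.01 ± 0.38, whereas Creb1 (0.30, adjusted p = 0.302) and Mafk (0.47, adjusted p = 0.254) did not pass.

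The NR4A, EGR and other early genes (median 1.32) rose in 16 of 26 tested cases (61.5%), against 4.83% of all genes, and fell in 0. All 3 NR4A receptors were called: Nr4a1 at 3.88 ± 0.23, Nr4a2 at 3.66 ± 0.38 and Nr4a3 at 3.56 ± 0.36. Gadd45b, a stress-inducible activator of p38 signalling, was at 906 and 760.4 CPM against 65.5 and 50.5 (3.84 ± 0.28). Csrnp1 rose by 3.05 ± 0.18, the kinase gene Sik1 by 3.34 ± 0.23, the clock gene Per1 by 2.51 ± 0.20 and Zfp36, which speeds decay of cytokine mRNAs, by 1.98 ± 0.19. Some early genes did not pass the test. Egr1, induced by TCR and growth factor signals, was at 104 and 126 against 97.4 and 123 CPM (adjusted p = 0.918), and Myc at 160.1 and 138 against 91.1 and 66.8 (adjusted p = 0.0693). Both muscle libraries lay above both spleen libraries for Myc, as for 25.4% of all genes tested. Myc passed under DESeq2, with no filter, in a fit of the compared groups only and with either other spleen reference. Ier2 differed more within muscle than between tissues, at 50.9 and 294 CPM against 109 and 105 in spleen.

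Several genes that dampen kinase, G protein and cAMP signals rose as well. Of 12 tested genes of the DUSP, Sprouty and Spred group, which switch off MAP kinases, 4 rose and 0 fell (median 1.41). They were Dusp1 at 2429.6 and 2099.7 against 244 and 137 CPM (3.57 ± 0.26), Dusp4 (3.21 ± 0.22), Dusp5 (2.09 ± 0.21) and Dusp10 (1.97 ± 0.28). Of 20 RGS and cAMP feedback genes 7 rose and 0 fell (median 0.39). Rgs2, which dampens G protein signals, was at 386 and 339 against 20.6 and 10.5 CPM (4.54 ± 0.37), and Rgs1 at 558 and 693 against 149 and 158 (2.03 ± 0.17). The phosphodiesterases Pde4a (3.13 ± 0.44), Pde4d (1.62 ± 0.39) and Pde4b (1.29 ± 0.16), which break down cAMP, all rose. Pde4d kept its call without spleen replicate 2, at 2.21, and lost it without each of the other libraries. Adcy7, which makes cAMP in lymphocytes, was at 234 and 269 against 313 and 313 CPM (adjusted p = 0.208).

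Some of the genes with large increases carry, near their start, a full cAMP response element, the palindrome TGACGTCA bound by CREB and CREM proteins. RefSeq promoters of build GRCm38.p6, covering 250 bases before to 50 bases after the start, were searched on both strands. The stretches around the match are printed here for Areg, Pcsk1, Ppp1r15a and Dusp1, because these genes are among the large increases, with the element in capitals; they were chosen after their values were seen.
Areg, chr5:91139493-91139590, plus strand: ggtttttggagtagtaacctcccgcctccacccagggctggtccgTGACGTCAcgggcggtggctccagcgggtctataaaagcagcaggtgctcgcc
Pcsk1, chr13:75089734-75089831, plus strand: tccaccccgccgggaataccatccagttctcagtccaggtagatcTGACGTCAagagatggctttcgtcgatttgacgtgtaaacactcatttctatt
Ppp1r15a, chr7:45526228-45526325, minus strand: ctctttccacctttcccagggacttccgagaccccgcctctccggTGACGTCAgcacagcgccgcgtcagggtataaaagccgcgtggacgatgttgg
Dusp1, chr17:26508563-26508660, minus strand: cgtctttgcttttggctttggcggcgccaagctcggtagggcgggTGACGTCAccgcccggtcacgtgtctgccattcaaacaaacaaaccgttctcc
The element begins 61 bases before the start in Areg, 78 in Pcsk1, 12 in Ppp1r15a and 143 in Dusp1. Pcsk1, also chosen after its values were seen and a proprotein convertase that cuts enkephalin and other hormone precursors, was at 81.5 and 97.4 CPM in muscle and 1.81 and 2.02 in spleen (adjusted p = 0.0417); its call was lost without any 1 of the 4 libraries, at adjusted p between 0.0968 and 0.317. Among all higher genes the element was as frequent as among genes not called. It was present for 18 of the 484 higher genes with a promoter in the table (3.72%), 5 of 237 lower genes (2.11%) and 315 of 8486 genes not called (3.71%), against 2.03% of all 27025 genes with a promoter in the table, each gene counted once if any of its promoters holds the element. Counted by promoter, 1.79% of all 32851 hold it. A match describes letters only; binding was not measured.

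Of 23 tested NF-κB genes 12 rose (52.2%), against 4.83% of all genes, and 0 fell (median 0.79). The list holds subunits, their inhibitors and feedback genes. Nfkbiz was at 942 and 1008 CPM against 126 and 149 (2.83 ± 0.16) and Nfkbia, which encodes IκBα, at 2989 and 2522 against 714 and 457 (2.23 ± 0.21). Tnfaip3, encoding the inhibitor A20, rose by 3.46 ± 0.48 (2.74 without muscle replicate 2), though its muscle libraries stood apart at 1013 and 2306 CPM against 139 and 164 in spleen, and its call was lost without either spleen library (adjusted p = 0.114 and 0.111). Of the subunits, Rel was at 558 and 476 against 175 and 162 CPM (1.62 ± 0.17), while Rela (adjusted p = 0.886), Relb (adjusted p = 0.375) and Nfkb1 (adjusted p = 0.121) did not pass. The kinase Map3k8 rose by 1.92 ± 0.27, the paracaspase Malt1 by 1.55 ± 0.18 and Traf1 by 1.13 ± 0.13.

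The Nfkbia promoter shows the κB element of such feedback genes, printed here because Nfkbia is the most abundant inhibitor of the list in these cells, with the element in capitals.
Nfkbia, chr12:55492622-55492721, minus strand: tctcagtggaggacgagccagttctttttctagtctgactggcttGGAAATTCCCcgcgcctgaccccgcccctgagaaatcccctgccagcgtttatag
It begins 29 bases before the start. The letters searched were GGGA and TTCC with 2 bases of any kind between them, on both strands. They were present for 17 of 484 higher genes (3.51%), 4 of 237 lower genes (1.69%) and 144 of 8486 genes not called (1.7%), against 1.63% of all 27025 genes, or 1.47% of all promoters. An AP-1 element, TGAGTCA on either strand, was present for 6.4% of higher, 6.75% of lower and 3.98% of genes not called. Of all 27025 genes 5.95% held it, near the shares of the called genes. The TCF and LEF element TTCAAAG was present for 6.4%, 4.64% and 4.48%, against 5.93% of all 27025 genes. The heat shock element, by its name, was present for 0.413% of higher, 0% of lower and 0.566% of genes not called, against 0.662% of all genes. In all 5 motifs were searched, and 9207 of the 13188 tested genes had a promoter in the table.

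Transcription factors of effector Tregs and of resting T cells moved in opposite directions. Of 30 tested effector factor genes 14 were higher and 0 lower in muscle (median 1.08), with 9 to 12 higher when any 1 library was left out. Bhlhe40, a stimulation-induced repressor, was at 218 and 165 CPM against 33.5 and 30.3 (2.58 ± 0.24), Ets2 at 217 and 212 against 46.2 and 40.1 (2.31 ± 0.28) and Id2 at 416 and 399.8 against 121 and 101 (1.88 ± 0.25). Irf4 rose by 1.99 ± 0.19, Rora by 1.57 ± 0.17 and Runx2 by 1.74 ± 0.22. Hif1a differed between the muscle libraries, at 492 and 1341 CPM against 337 and 421 in spleen (adjusted p = 0.256).

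Of 19 tested factors of resting T cells 7 were lower and 0 higher (median -0.37), or 36.8% against 2.55% of all genes. Tcf7, the TCF1 factor of resting and memory-like T cells (chromosome 11, 52252371 to 52283014), was at 7.48 and 1.23 CPM in muscle and 167 and 163 in spleen (-5.41 ± 0.49, adjusted p = 0.000151). Its value was -7.04 without muscle replicate 1 and -4.46 without muscle replicate 2. Id3, which restrains E proteins (chromosome 4, 136143497 to 136145755), was at 12.3 and 19.6 against 173 and 173 (-3.41 ± 0.22, adjusted p = 1.75e-07). Aff3 was at 0.748 and 2.45 against 31.5 and 51.6 CPM and Gata1 at 0 and 1.96 against 18.1 and 20.9. The Gata1 value ranged from -9.36 to -3.29 with any 1 library left out, and its place in this list was not tested. Lef1, the close relative of Tcf7, fell from 184 and 236 to 108 and 92.2 CPM (-1.07 ± 0.17), and Klf3 from 184 and 213 to 83.8 and 85.6 (-1.23 ± 0.18). Ets1 and Nfatc1, which T cells use at rest and after stimulation, did not pass (adjusted p = 0.895 and 0.243). Klf2 was at -0.89 ± 0.32 and did not pass either (adjusted p = 0.108).

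Genes of homing to and exit from lymphoid organs were divided (median -0.27). Of 20 tested genes 8 were lower (40%) and 5 higher (25%), against 2.55% and 4.83% of all genes. Without any 1 library 6 to 8 were lower and 1 to 3 higher. Ccr7, the receptor that brings T cells to lymphoid zones, was at 40.4 and 46.9 CPM against 187 and 223 (-2.23 ± 0.19), and Cxcr5, the follicle receptor, at 4.49 and 3.92 against 61.4 and 53.8 (-3.78 ± 0.38). Itga4, the α4 integrin chain, was at 60.2 and 49.8 against 311 and 320.3 (-2.53 ± 0.21). Cd69, which retains cells in tissue by blocking S1pr1, was at 951 and 858 against 205 and 240.0 CPM (2.02 ± 0.14), and Cxcr4 (2.11 ± 0.42) and Gpr183 (0.69 ± 0.17) also rose. S1pr1 itself was at 312 and 298 against 407 and 447 CPM and did not pass here (adjusted p = 0.0641). It passed under DESeq2 and with both Tg spleen groups as the reference. Itgb7, the partner chain of Itga4 and Itgae, varied within muscle more than between tissues, at 421 and 2472 CPM against 1141 and 1755.

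Of 12 tested purine genes 2 fell (16.7%), against 2.55% of all genes, and 0 rose (median -0.16). P2rx7, a channel opened by extracellular ATP (chromosome 5, 122643911 to 122691432), was at 19.8 and 17.7 CPM in muscle and 179 and 169 in spleen (-3.22 ± 0.21, adjusted p = 2.01e-07). Art2b, an ectoenzyme that modifies P2rx7 when NAD is released, was at 16.1 and 25.5 against 123 and 144 CPM (-2.66 ± 0.22). Adk and Slc29a1, which handle adenosine, did not pass (adjusted p = 0.301 and 0.475).

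Other large decreases were spread over signalling and membrane genes. Nsg2 fell by 3.46 ± 0.29, the LIM domain gene Pdlim1 by 2.42 ± 0.32, Dtx1, an E3 ligase of the Notch pathway, by 2.35 ± 0.24, Mtss1 by 2.38 ± 0.45 and Asap1 by 2.12 ± 0.22. Igfbp4, which binds insulin-like growth factors (chromosome 11, 99041244 to 99054392), had no count in muscle and was at 70.5 and 68.2 CPM in spleen, at least 74.6-fold higher in spleen against the floor of 3 counts per library. Slc40a1, the iron exporter ferroportin, was also at 0 in muscle and at 27.9 and 39.9 CPM in spleen, at least 36.5-fold higher there. Hmox1, which degrades haem, fell from 28.8 and 26 to 10.1 and 8.83 CPM and Apoe from 43.7 and 50.5 to 10.8 and 5.64. Cybb, a subunit of the phagocyte oxidase, fell from 41.7 and 33.9 to 11.6 and 6.38. Slc40a1, Hmox1, Apoe and Cybb are strongly expressed by macrophages, whose summed markers were 198 and 233 CPM in spleen and 45.6 and 38.3 CPM in muscle; the part of macrophage RNA in these 4 decreases was not tested. The Hmox1 call was lost in each fit without 1 library.

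Among survival genes, 1 of the BCL2 family fell and others rose. Bcl2 fell from 94.5 and 116 to 8.23 and 9.32 CPM (-3.57 ± 0.30), while Bcl2l1, encoding Bcl-xL, rose from 158 and 131 to 388 and 387 (1.42 ± 0.18). Cflar, an inhibitor of caspase 8, rose by 0.80 ± 0.15, and Pmaip1, the death-promoting NOXA, by 1.85 ± 0.29. Bcl2a1b rose by 1.91 ± 0.33, but its reads can be shared with near-identical copies. Cdkn1a, which encodes the cell cycle inhibitor p21, was at 160.4 and 134 CPM against 6.12 and 3.36 (4.95 ± 0.46). In all 8 of 30 tested genes of this list rose and 1 fell (median 0.23), with 5 to 6 higher when any 1 library was left out.

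Cell cycle genes were near the background, with 3 of 39 tested genes higher (7.69%) and 0 lower (median 0.13). Without any 1 library 0 to 1 were called. The 3 were the replication helicase subunits Mcm2 (0.71 ± 0.16), Mcm4 (0.64 ± 0.17) and Mcm6 (0.62 ± 0.15). Top2a, a marker of dividing cells, was at 113 and 188 against 135 and 137 CPM (adjusted p = 0.942). Ccnd2, a D cyclin counted with the survival genes, rose by 0.71 ± 0.14.

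Heat shock genes, which encode protein chaperones, rose in 9 of 23 tested cases and fell in 0 (median 0.70), with 5 to 9 higher when any 1 library was left out. Hspa1a was at 168 and 187 CPM in muscle and 0 and 1.12 in spleen, and its near-identical neighbour Hspa1b, which can share its reads, at 30.7 and 27.5 against 0 and 0.449. Of the more abundant chaperones, Hspa8 was at 1742 and 1823 against 770.5 and 949 (1.05 ± 0.14), Hsp90aa1 rose by 1.47 ± 0.17, Hsph1 by 1.16 ± 0.17 and Dnajb1 by 0.81 ± 0.16. Of 22 endoplasmic reticulum and integrated stress genes 5 rose and 1 fell (median 0.43), with 2 to 4 and 0 to 1 when any 1 library was left out. Ppp1r15a, which restarts translation after stress, stood far above the others at 942 and 838 against 48.7 and 38.4 CPM (4.35 ± 0.26), while the chaperone Hspa5 rose by 0.82 ± 0.13 and Dnajc3 fell by 0.83 ± 0.22.

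Early and heat shock genes are also known to respond to the preparation of tissue. Of 25 genes in a list of such dissociation-responsive genes 19 rose (76%, against 4.83% of all genes) and 0 fell (median 1.47). Those that rose include Fos, Jun, Junb, Nr4a1, Dusp1 and Hspa1a. Members of that list that did not pass include Egr1, Hspe1 (adjusted p = 0.907) and Socs3 at 223 and 232 against 131 and 125 CPM (adjusted p = 0.074). Socs3 passed under DESeq2 and with both Tg spleen groups as the reference. Muscle and spleen call for different preparation and every muscle library was set against every spleen library, so tissue and preparation cannot be told apart. Nearly all members of that list also stand in the lists already described, so its count is no separate evidence.

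Of 20 tested glycolysis genes 9 rose and 0 fell (median 0.59). Slc16a3, a lactate exporter, was at 104 and 109 CPM against 17.9 and 22 (2.42 ± 0.26). Among the enzymes Pkm was at 1891 and 1853 against 803 and 751 (1.27 ± 0.13), Aldoa rose by 0.97 ± 0.14, Gapdh by 0.87 ± 0.14 and Ldha by 0.72 ± 0.15, each under 3-fold. Of 14 tested hypoxia genes 3 rose, Egln3 (2.5 ± 0.30), Mxi1 (1.86 ± 0.40) and Ndrg1 (1.03 ± 0.20), or 1 to 3 with any 1 library left out, while Pdk1 at 52 and 75.1 against 99.9 and 119 CPM did not pass (adjusted p = 0.093).

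Of 15 tested genes of the mitochondrial genome 6 fell and 0 rose (median -0.62), with 2 to 4 lower when any 1 library was left out. Each of the 6 encodes a subunit of complex I or complex III: mt-Nd5 was at 937 and 909 CPM against 1611 and 1924 (-0.94 ± 0.15), mt-Cytb at 1150.3 and 1183 against 1856 and 2057 (-0.75 ± 0.13), and mt-Nd1, mt-Nd2, mt-Nd4 and mt-Nd6 fell by 0.50, 0.98, 0.74 and 0.91. The complex IV gene mt-Co1, at 2796 and 2770.3 against 2987 and 3505 CPM, did not pass (adjusted p = 0.398). Mitochondrially encoded genes took 0.735% and 0.734% of counts in muscle and 1.13% and 1.3% in spleen. Among 76 tested nuclear genes of the respiratory chain 1 rose, Atp5d, and 0 fell (median 0.07). Ribosomal protein genes were negative in 69 of 81 tested cases, but only 2 were called, Rpl12 (-0.50) among them (median -0.25), and with any 1 library left out 0 to 1 of the 81. The Atp5d call was lost in each of these fits. The 2 ribosomal genes called lower were 2.47% of those tested, near the 2.55% of all genes. Positive values were found for 12 of the 81 ribosomal genes, against 6191 of all 13188 genes tested.

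Of 17 tested amino acid and polyamine genes 4 rose and 0 fell (median 0.12). Odc1, the rate-limiting enzyme of polyamine synthesis, was at 205 and 180.3 CPM against 17.4 and 16.4 (3.50 ± 0.22, adjusted p = 1.7e-07), and Sat1, which marks polyamines for export and breakdown, rose by 0.69 ± 0.15. The transporter genes Slc38a2 and Slc3a2 rose by 1.31 ± 0.17 and 1.11 ± 0.14. Of 25 iron and redox genes 5 rose and 3 fell (median 0.29), with 3 to 4 higher and 1 lower when any 1 library was left out: the ferritin chain Fth1 rose by 0.94 ± 0.16 and the transferrin receptor Tfrc by 1.13 ± 0.30, and Txnip, an inhibitor of thioredoxin, fell by 0.67 ± 0.18. Of 29 tested sterol and lipid genes 2 rose (6.9%) and 1 fell (3.45%), near the 4.83% and 2.55% of all genes. The median of the list was -0.24. Plin2, which coats lipid droplets, was at 59.5 and 72.4 against 26.7 and 20.2 CPM (1.49 ± 0.23), and Srebf1, a regulator of lipid synthesis genes, rose by 0.72 ± 0.17.

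All 33 tested interferon-responsive genes had a positive value, muscle minus spleen (median 1.11), against 6191 of the 13188 genes tested, and 10 passed the test. Ifitm3, an antiviral membrane protein, was at 31.4 and 42.4 CPM against 3.63 and 0.897 (4.02 ± 0.63; 5.32 without spleen replicate 1 and 3.34 without spleen replicate 2) and Oas2 at 56.8 and 68.9 against 10.9 and 14.6 (2.30 ± 0.31). Isg20 rose by 1.91 ± 0.33, Bst2 by 1.32 ± 0.24, Gbp3 by 1.09 ± 0.21 and Igtp by 1.07 ± 0.21. The abundant MHC class I genes rose by under 2-fold: H2-K1 was at 9304 and 9085 against 6585 and 5953 CPM (0.55 ± 0.14, adjusted p = 0.028) and B2m at 5537 and 5757 against 3802 and 3880.3 (0.56 ± 0.14, adjusted p = 0.0257). With any 1 library left out 2 to 8 of the 33 were called, and H2-K1, H2-D1 and B2m were called in none of these fits. Irf1, a transcription factor, did not pass (adjusted p = 0.223).

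Genes of cell shape and the nuclear envelope rose in 11 of 29 tested cases and fell in 1 (median 0.69), with 7 to 10 higher when any 1 library was left out. Lmna, encoding lamin A and C (chromosome 3, 88480147 to 88509956), was at 954 and 655 CPM against 82.5 and 87.5 (3.24 ± 0.35), and the intermediate filament gene Vim at 2928 and 2906 against 1395 and 1192 (1.17 ± 0.19). The tubulin gene Tubb6 rose by 3.85 ± 0.60 (4.62 without spleen replicate 1), the cytolinker gene Plec by 0.83 ± 0.13 and Plp2 by 1.14 ± 0.16. Actn1, the actin crosslinker α-actinin 1, was the gene that fell, from 14.3 and 11.9 to 0.748 and 0.736 CPM. Anxa6, an abundant annexin, did not pass (adjusted p = 0.156).

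For the genes quoted here, uninjured Tg spleen lay on the same side of muscle as injured Tg spleen. In uninjured Tg spleen, Tcf7 was at 174 and 135 CPM, Ccr7 at 199.9 and 166, P2rx7 at 154 and 225 and Bcl2 at 111 and 103, all far above both muscle libraries. Areg was at 1.36 and 6.15 CPM there, Il10 at 7.85 and 6.92, Fos at 59.4 and 54.6 and Nr4a1 at 183 and 277, all far below both muscle libraries. With uninjured spleen as the reference 827 genes were called, 551 of them higher in muscle. Of the 973 genes called against injured spleen, 684 were among the 827. Of the 194 called genes named in the text, 25 lost their call with this reference. These comparisons share the 2 muscle libraries.

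Whether the tissue effect differed from that in WT Tregs was tested as a difference of differences in the same fit. It passed for 18 of 13188 genes (0.136%), 7 with a larger (0.0531%) and 11 with a smaller value (0.0834%) in Tg. The count was between 3 and 241 with any 1 of the 8 libraries left out, the highest without WT muscle replicate 1. Il2ra, the IL-2 receptor α chain, was at 860.1 and 1261 CPM in Tg muscle and 368 and 370.3 in Tg spleen, but at 769 and 645 in WT muscle and 637 and 753 in WT spleen. Rel was at 558 and 476 against 175 and 162 CPM in Tg but at 253 and 177 and 172 and 180.0 in WT. For these 2 genes muscle lay above spleen in Tg and the tissues overlapped in WT, with a difference of 1.5 ± 0.23 (adjusted p = 0.0245) and 1.33 ± 0.23 (adjusted p = 0.0434). Ecm1, a secreted matrix protein, rose in Tg muscle (1.01) and fell in WT muscle (-0.79).

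The spleens also differed between Tg and WT for these genes. Il2ra was at 368 and 370 CPM in Tg against 637 and 753 in WT spleen. Ecm1 was at 101.5 and 96.7 CPM in Tg against 259 and 240 in WT spleen. For Myadm and Lgals3 the spleens differed more than the muscles. Myadm, a membrane protein, was at 195 and 266 CPM in Tg against 264 and 276 in WT muscle, but at 92.5 and 100.5 in Tg and 15.4 and 18.4 in WT spleen, a difference of -2.72 ± 0.26 (adjusted p = 0.000548). Lgals3, galectin 3, was at 115 and 121 and 104 and 137 CPM in the muscles but at 99.9 and 59.7 in Tg and 17.3 and 12.7 in WT spleen. Ahnak, Fam129a, S100a10, Nhsl2 and Ccr4 had the same order in spleen, with both Tg libraries above both WT libraries. For Cxcr3, a receptor of type 1 inflammation, the muscles differed as well, at 215 and 223 CPM in Tg against 419 and 449 in WT. P2rx7 levels in Tg lay below those in WT in both tissues, at 179 and 169 CPM in Tg against 271 and 314 in WT spleen and at 19.8 and 17.7 in Tg and 97.4 and 87.6 in WT muscle. The genotypes also differ in the sort gate, Vβ8+ in Tg and all Tregs in WT, and genotype and gate cannot be told apart.

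**Figure D5:**
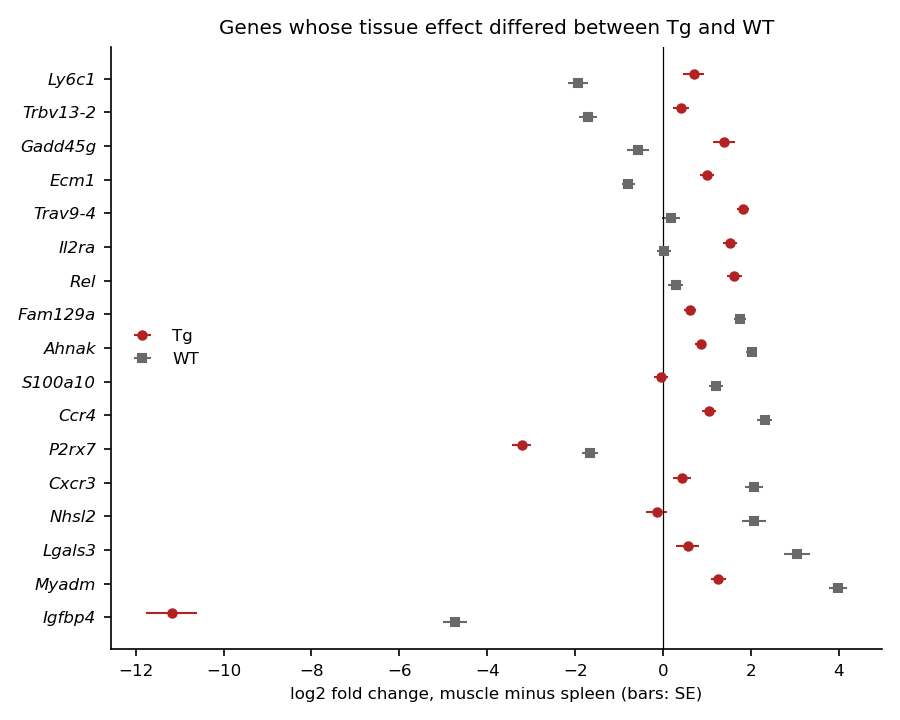
Log2 fold change, muscle minus spleen, ± SE in Tg (circles) and WT (squares) Tregs for 17 of the 18 genes whose tissue effect differed between genotypes at an adjusted p under 0.05. Il2ra, Rel and Trav9-4 are near 0 in WT and above 1 in Tg, whereas Lgals3, Nhsl2 and S100a10 are above 1 in WT and between -0.15 and 0.57 in Tg; the fitted value of Igfbp4 in Tg rests on 0 counts in muscle and is no measure of its size.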

How the data were processed

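RNA of sorted Tregs was sequenced in short read pairs after oligo(dT) priming and Nextera XT fragmentation, per the labels' protocols; the labels and the design text give different numbers of cells per library. The deposited table holds raw read counts per gene symbol, which the authors made with STAR 2.5.4 and featureCounts on mm10, per the submitters' processing notes; the annotation and the treatment of multi-mapping reads are not stated. The kit does not mark strand, so overlapping and antisense genes cannot be told apart, and reads of near-identical copies can be shared.

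Counts of the 10 Treg libraries, in 5 groups of 2, were fitted together in edgeR 4.0.16 (R 4.3.3) with filterByExpr, TMM scaling and the robust quasi-likelihood test, leaving 5 residual degrees of freedom before moderation across genes. Adjusted p-values are Benjamini-Hochberg values over all 13188 genes tested. The groups come from the sample titles. SE is the absolute log2 fold change divided by the square root of F. The scripts were tested on simulated counts. Totals of 2899946 to 4438454 counts limit the precision at low levels, and the floor of 3 counts covers counting error only. The 2 libraries of a group differed by more than counting error, with a chi-square per degree of freedom of 9.02 in muscle and 6.06 in spleen. The deviations of same-numbered muscle and spleen libraries correlated at 0.07 across genes. With only 2 libraries per group this cannot show whether the tissues came from the same animals.

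Named genes follow a rule: Foxp3, Il2ra, Cd4 and the 2 transgenic segments; the 25 largest changes per direction at a mean log2 CPM of at least 4; the 15 largest changes of mean CPM per direction; from each list up to 6 called genes per direction by p and the 4 most abundant uncalled; up to 10 per direction of the difference test; and cell type markers. Members and lists were chosen with earlier results of these data known. Alternatives used RLE scaling, other filters, DESeq2 1.42.0, limma-voom (limma 3.58.1), thinning, a minimum log2 fold of 1, a replicate block, other spleen references, fits of the compared groups, removed receptor segments and each library left out. Gene coordinates come from GENCODE M21 (GRCm38) and promoters from RefSeq GRCm38.p6. Whole-muscle libraries were left out because they hold other cells. A few genes are not reported here by name; they stay in the counts.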

Additional observations from a re-analysis of the deposited data

Results flagged for a closer look

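For 18 genes the effect of tissue differed between Tg and WT Tregs by edgeR's quasi-likelihood test of the difference itself, each at an adjusted p under 0.05. The values given here for 17 of them are the tissue effect in Tg minus that in WT, on the log2 scale. Those larger in Tg were Ly6c1 (2.63), Trbv13-2 (2.12), Gadd45g (1.96), Ecm1 (1.79), Trav9-4 (1.65), Il2ra (1.5) and Rel (1.33). Those smaller in Tg were Igfbp4 (-6.45), Myadm (-2.72), Lgals3 (-2.48), Nhsl2 (-2.21), Cxcr3 (-1.64), P2rx7 (-1.55), Ccr4 (-1.26), S100a10 (-1.24), Ahnak (-1.15) and Fam129a (-1.14). The value of Igfbp4 depends on the prior count, because Tg muscle had 0 counts, while WT muscle was at 4.29 and 3.07 CPM. Trbv13-2 was at 15.6 and 22 CPM in WT muscle and 51 and 72 in WT spleen, where total Tregs were sorted. Trav9-4 was at 10.4 and 11.7 CPM in WT muscle and 11.1 and 9.08 in WT spleen. For both segments the sort gate differs between the genotypes, so their tissue effects are not like for like. Ly6c1 was at 62.5 and 59.6 CPM in Tg muscle, 29.5 and 45.5 in Tg spleen, 43.8 and 39 in WT muscle and 164 and 152 in WT spleen.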

How the results depend on the processing

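With all libraries, the count of 973 genes (637 higher, 336 lower) ranged from 795 after thinning to 1401 with both Tg spleen groups as the reference, apart from 189 (134 higher, 55 lower) where a minimum log2 fold of 1 was tested. Under DESeq2 it was 1151, and 966 of the 973 were among them. Leaving out 1 library gave 452 to 640 genes, 318 to 435 higher and 133 to 253 lower. A further design used the replicate number as a replicate block, which gave 1009 genes (657 higher, 352 lower) and 14 for the difference (6 and 8). Of 194 called genes named in the text, 161 were called under each of 12 alternatives that kept all libraries and tested no minimum fold, and 137 in each of the 4 fits without 1 library.

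The 18 genes of the difference between genotypes depended more on the settings: 62 under DESeq2 (21 larger, 41 smaller in Tg), 140 with no filter (37 and 103), 10 after thinning (4 and 6), and 4 both in a fit of the compared groups and without robust dispersion (3 and 1 each). With a minimum log2 fold of 1 there was 1 (0 and 1). Leaving out 1 library gave 3 to 241 (2 to 169 larger, 1 to 72 smaller), the lowest without Tg injured spleen replicate 1 and the highest without WT muscle replicate 1. Myadm was called in 19 of 19 alternatives, Il2ra in 13 and Rel in 11. The cause of these changes was not tested.

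Among genes that were not called, 11 had a log2 fold change of the other sign under some alternative, none past the threshold. Under DESeq2, Itgb7 was at -0.00248. With both Tg spleen groups as the reference, Egr1 was at -0.0731 and Itgb7 at -0.12. In a fit of the compared groups only, Itgb7 was at -0.00594 and Ptprc at -0.0041. Under RLE scaling, Itgb7 was at -0.000392. With the 5 CPM filter, Itgb7 was at -0.00807 and Ptprc at -0.00173. Under limma-voom, Itgb7 was at -0.374. With receptor segments removed, Itgb7 was at -0.000686. With the replicate block, Itgb7 was at -0.326. After thinning, Ctsd was at -0.00343, Hspe1 at -0.213, Itgb7 at -0.0104, Ptprc at -0.0251 and Top2a at -0.0817. With uninjured spleen as the reference, Egr1 was at -0.212, Ets1 at 0.00219, Hspe1 at -0.0338, Itgb7 at -0.241 and Nhsl2 at 0.019. Leaving out 1 library, Ctsb ranged from -0.0334 to 0.146, Egr1 from -0.0916 to 0.241, Ets1 from -0.149 to 0.0706, Hspe1 from -0.0232 to 0.175, Ier2 from -1.08 to 1.46. Likewise Itgb7 ranged from -1.78 to 0.774, Nhsl2 from -0.461 to 0.0956, Ptprc from -0.155 to 0.149, Rela from -0.0269 to 0.144 and Top2a from -0.269 to 0.467. Muscle library depth, 2899946 and 4438454 counts, limits what can be called at low levels.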

Other observations

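Some genes read in spleen were absent from muscle. The γ chain constant genes Tcrg-C1, Tcrg-C2 and Tcrg-C4 had no count in either muscle library. Tcrg-C4 was at 8.38 and 9.42 CPM in spleen, at least 9.58-fold higher against the floor of 3 counts per library, and Tcrg-C2 at 3.17 and 7.63. These segments share sequence, so reads can be split between them. Dapl1, a marker of resting T cells, was also at 0 in muscle and at 19.9 and 11.7 CPM in spleen, at least 17-fold higher. They were chosen after their values were seen.

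The 2 muscle libraries were far apart for a few abundant genes. Itgb7 was at 421 and 2472 CPM in muscle against 1141 and 1755 in spleen, Hif1a at 492 and 1341 against 337 and 421, Ier2 at 50.9 and 294 against 109 and 105 and Tnfaip3 at 1013 and 2306 against 139 and 164.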
